A study of Mus musculus with 8 samples.

Results

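Interferon-stimulated effector genes are genes that cells switch on in response to interferons and whose products sense, bind or block invading viruses and microbes. In the work described here 47 of them were followed in cultured mouse embryonic kidneys. They were taken by name from the gene table, which holds 30890 genes, and cover nucleic acid sensors, the IFIT, OAS, Mx, guanylate-binding, immunity-related GTPase and Schlafen families, the ISG15 system, 3 genes of the PARP9 and DTX3L group, *Stat2* and 8 other antiviral factors. All 47 had a row in the table, and all 47 passed the filter on low counts. The kidneys came from C57BL/6 embryos at E12.5, when the ureteric bud has begun to branch, and were grown for 72 h on a floating filter in medium with transferrin and insulin. The 4 kidney samples of the treated group received 5 µM CHIR99021, an inhibitor of the kinase GSK-3 that stabilises β-catenin, and the 4 samples of the control group received 0.1% DMSO, its solvent. No genotype other than the strain is given for either group, and the comparison asks how these genes respond when Wnt/β-catenin signaling is activated in the whole organ. The left kidney of an embryo served as control and the right kidney was treated. Kidneys in which Wnt target genes did not respond were excluded by the authors.

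Interferons are secreted proteins that bind receptors on the cell surface, and the Janus kinases attached to those receptors phosphorylate transcription factors such as STAT2. After type I interferons, a complex that holds STAT2 and IRF9 binds interferon-stimulated response elements near its target genes, whereas interferon-γ acts through a different element, the gamma-activated site. Many targets are also expressed at a low level without infection, in blood cells and endothelium as well as in epithelia, and several of their products, such as STAT2, IRF7 and the RNA sensors, are themselves part of the pathway.

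Sequence upstream of the start site was examined because the response elements of the pathway lie there and it was not used to choose the genes. RefSeq promoter windows (build GRCm38.p6) were at hand for 32 of the 47 genes, and the 250 bases before the start site were searched on both strands. A gene was counted where any of its windows held a match. The core of the interferon-stimulated response element, GAAANNGAA, occurred in 21 of these 32 genes (65.6%), compared with 2211 of all 27025 genes with a window (8.18%). The gamma-activated site, TTCNNNGAA, occurred in 7 (21.9%) compared with 2197 (8.13%). Matches to GAAANNGAA can overlap each other, and a match is a description of the letters, not evidence of binding. *Dhx58*, *Zbp1*, *Ifi204*, *Oas2*, *Usp18*, *Ifi27l2a*, *Rtp4*, *Mx1*, *Mx2*, *Gbp4*, *Gbp6*, *Gbp9*, *Iigp1*, *Parp9* and *Parp14* had no entry. The stretches printed next were chosen to show how the element looks in genes of different families, together with *Ddx58*, which had no match. Capitals mark the bases of a match to GAAANNGAA on either strand, and each stretch runs 5′ to 3′ on the strand of its gene. The plus strand was read for *Ifit1* (chr19:34640760-34640833), *Ifit3* (chr19:34583354-34583455), *Ifit3b* (chr19:34607750-34607851), *Gbp3* (chr3:142559980-142560034), *Igtp* (chr11:58199502-58199550) and *Stat2* (chr10:128270257-128270305). The minus strand was read for *Isg15* (chr4:156200856-156200916), *Oas3* (chr5:120777700-120777754), *Oas1a* (chr5:120907526-120907565), *Rsad2* (chr12:26456543-26456591), *Ifih1* (chr2:62646339-62646387) and *Ddx58* (chr4:40239826-40239925).
Isg15: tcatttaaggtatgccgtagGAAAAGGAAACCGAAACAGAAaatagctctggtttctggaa
Ifit1: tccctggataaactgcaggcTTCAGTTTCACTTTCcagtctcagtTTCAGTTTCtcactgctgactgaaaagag
Ifit3: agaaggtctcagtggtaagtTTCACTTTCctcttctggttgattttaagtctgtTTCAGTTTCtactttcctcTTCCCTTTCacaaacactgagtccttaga
Ifit3b: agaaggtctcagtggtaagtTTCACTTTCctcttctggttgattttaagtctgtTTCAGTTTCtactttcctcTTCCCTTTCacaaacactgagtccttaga
Oas3: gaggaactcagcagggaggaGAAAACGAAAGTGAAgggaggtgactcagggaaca
Oas1a: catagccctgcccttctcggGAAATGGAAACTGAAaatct
Rsad2: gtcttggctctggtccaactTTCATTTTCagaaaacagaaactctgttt
Gbp3: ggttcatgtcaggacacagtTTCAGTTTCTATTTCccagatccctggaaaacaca
Igtp: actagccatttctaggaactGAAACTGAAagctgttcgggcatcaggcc
Stat2: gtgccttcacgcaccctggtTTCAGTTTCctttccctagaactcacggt
Ifih1: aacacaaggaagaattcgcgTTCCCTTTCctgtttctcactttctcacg
Ddx58: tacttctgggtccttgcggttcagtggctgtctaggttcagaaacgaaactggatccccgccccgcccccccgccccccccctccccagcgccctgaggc

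In *Isg15* the capitals hold 3 overlapping matches, and in *Ifit1* a pair of overlapping matches precedes a separate one. The *Ifit3* and *Ifit3b* stretches were identical over 102 of 102 bases, and the stretch of *Igtp* differed from that of its neighbour *Irgm2* at 2 of 49 bases. Of the 32 genes with a window, 10 had 2 or more matches to GAAANNGAA. The 11 without one were *Ddx58*, *Ifitm3*, *Dtx3l*, *Ifi35*, *Ifi44*, *Ifit2*, *Oasl1*, *Oasl2*, *Slfn1*, *Slfn2* and *Xaf1*. Their median log2 fold change of CHIR99021 over DMSO was -1.43 (-7.49 to 0.25). For the 21 genes with a match it was -1.85 (-4.87 to -0.61), so *Ddx58* does not stand for the genes without one. With 1 more A required at the 3′ end, 19 of the 32 genes still matched (59.4%), compared with 936 of all genes with a window (3.46%).

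The 8 libraries held 14599082 to 17751992 counts each, and 16723 of the 30890 genes were tested. In edgeR's quasi-likelihood test 4180 genes were lower with CHIR99021 and 3958 higher, so that 48.6% of the called genes were higher. On the deposited FPKM values, which are not corrected for the composition of a library, that share was 29.5 or 29.2%, depending on the pseudocount, and the median log2 fold change of all tested genes was -0.10 or -0.13 instead of 0.00. With upper-quartile scaling in edgeR the share was 41.5% and the median -0.05. TMM scaling itself pulls the changes toward an even balance, so these shares do not show which scale is right. Levels are given as CPM, read counts divided by the library size after TMM scaling, with n = 4 samples in each group throughout and ± for the SD between samples unless SE is named. The log2 fold change of CHIR99021 over DMSO is written log2FC. A gene is called lower or higher where its adjusted p is under 0.05.

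Nearly all of the interferon-stimulated genes were lower in the CHIR99021-treated kidneys. Of the 47 genes, 45 were called lower, where 25.0% of all tested genes were, and 1 was called higher, where 23.7% were. With a log2 fold change under -1 in addition, 38 of the 47 were called, compared with 9.16% of all tested genes, and 22 were called with a log2 fold change under -2. In 44 genes the 4 treated samples all lay below the 4 control samples, a pattern seen in 23.4% of tested genes. The 47 genes were chosen with earlier results of these data known, so these shares are a description and not a test. The median log2 fold change was -1.85, or 3.60-fold lower, and the summed level of the 47 genes went from 1042 ± 115 to 513 ± 28.0 CPM, which is 49.3% of the control level. Abundant members weigh most in this sum, and among them are *Ifitm3* and *Ddx58*, the 2 genes that were not called lower. The sum in single samples was 1150, 1005, 1116 and 897 CPM with DMSO and 543, 530, 497 and 483 CPM with CHIR99021, so the groups did not overlap.

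**Figure D1:**
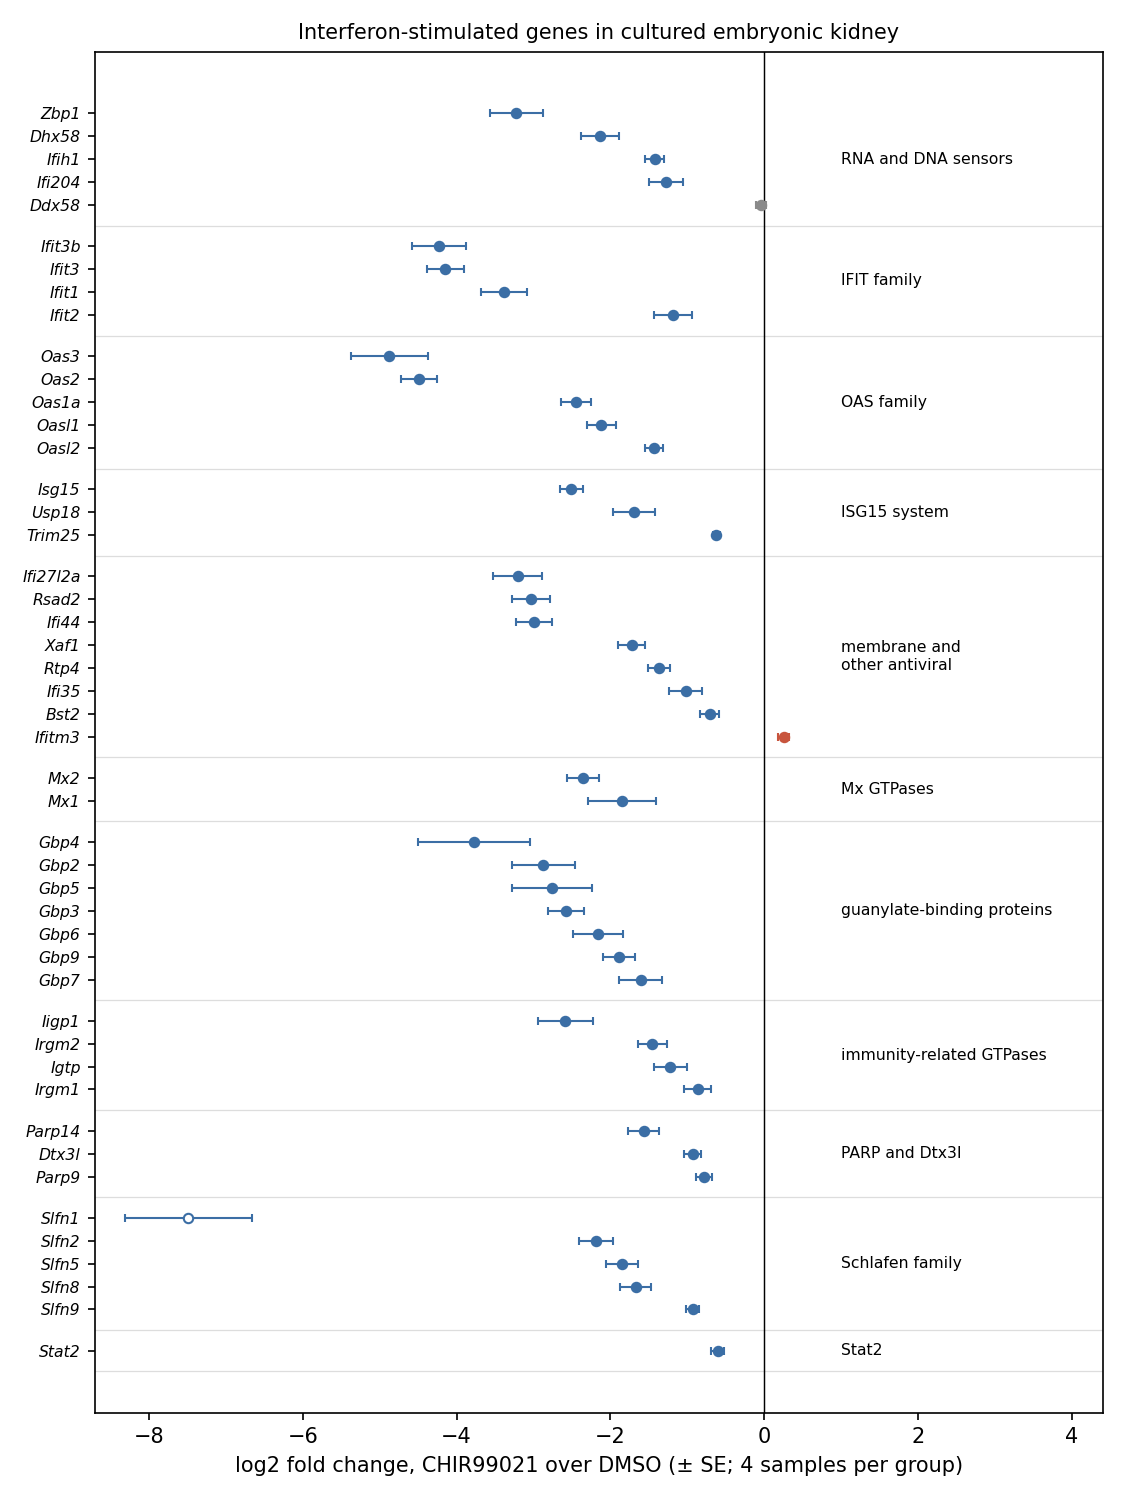
Log2 fold change of CHIR99021 over DMSO (x axis) for each of the 47 genes, grouped by role, with bars of ± 1 SE from edgeR and 4 samples per group. Blue points are called lower, the red point (*Ifitm3*, 0.25) higher and the grey point (*Ddx58*, -0.05) neither. The open point, *Slfn1*, is a fitted value for a gene with 0 counts in the treated group and is not a bound.

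The cytosolic sensors did not move together. Of 5 sensors, 4 were lower, with a group median of -1.42 on the log2 scale. *Ifih1* encodes MDA5, which binds long double-stranded RNA, and measured 23.6, 19.5, 22.3 and 19.96 CPM in DMSO samples 1 to 4 and 9.92, 7.16, 6.96 and 7.76 CPM in CHIR99021 samples 1 to 4 (log2FC -1.42 ± 0.12 SE, adjusted p = 1.15e-06). *Dhx58* encodes LGP2, a regulator of the other RNA sensors, and measured 6.49, 6.39, 10.1 and 6.02 CPM in DMSO samples 1 to 4 and 1.56, 2.28, 1.005 and 1.71 CPM in CHIR99021 samples 1 to 4 (log2FC -2.14 ± 0.25 SE, adjusted p = 1.49e-05). Both genes were lower in every treated sample than in any control, and DMSO sample 3 stood above the other 3 controls for *Dhx58*. *Zbp1*, a sensor of left-handed nucleic acids that can trigger cell death, measured 14.5, 13.8, 12.4 and 7.26 CPM in DMSO samples 1 to 4 and 0.998, 2.28, 0.646 and 1.18 CPM in CHIR99021 samples 1 to 4 (log2FC -3.22 ± 0.34 SE, adjusted p = 2.67e-05). *Ifi204*, a DNA sensor of the IFI200 family, had a log2 fold change of -1.28 ± 0.22 (SE). *Ddx58* encodes RIG-I, the sensor of short double-stranded RNA with a 5′ triphosphate, and measured 59.9, 59.1, 62.0 and 59.1 CPM in DMSO samples 1 to 4 and 65.0, 56.7, 51.6 and 59.2 CPM in CHIR99021 samples 1 to 4 (log2FC -0.05 ± 0.07 SE, adjusted p = 0.607 in edgeR). Its groups overlapped, and the approximate 95% interval of the log2 fold change was -0.21 to 0.12, which excludes a fall of the size seen in the other sensors. Without CHIR99021 sample 3 the value was 0.01.

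Whether the 3 RNA sensors changed by different amounts was tested on the ratio of their counts within each sample, by exact two-sided permutation tests adjusted over 6 ratios. The log2 ratio of *Ifih1* to *Ddx58* was -1.49 ± 0.11 with DMSO and -2.87 ± 0.12 with CHIR99021, a difference of -1.38 (permutation p = 0.0286, adjusted p = 0.0429). For *Dhx58* to *Ddx58* the difference was -2.10 (permutation p = 0.0286, adjusted p = 0.0429). The value of 0.0286 is the smallest p that 4 samples against 4 allow. Both ratios were lower in all 4 treated samples than in any control. With equal numbers taken as left and right kidneys of an embryo, neither ratio passed (p = 0.125 for each in an exact sign-flip permutation, the smallest that 4 pairs allow). The ratio of *Ifih1* to *Dhx58* differed by 0.72 between groups, which did not pass (permutation p = 0.0857, adjusted p = 0.0857).

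The IFIT and OAS families held the steepest falls among genes that were still detected in every treated sample. IFIT proteins bind viral RNA that lacks the host cap modification, and all 4 members were lower, with a median log2 fold change of -3.76. *Ifit3* measured 17.5, 13.1, 19.3 and 10.53 CPM in DMSO samples 1 to 4 and 1.06, 0.803, 0.861 and 0.657 CPM in CHIR99021 samples 1 to 4 (log2FC -4.14 ± 0.24 SE, adjusted p = 3.27e-08). *Ifit3b*, its close copy, measured 6.01, 5.02, 4.33 and 3.80 CPM in DMSO samples 1 to 4 and 0.374, 0.402, 0.144 and 0.0657 CPM in CHIR99021 samples 1 to 4 (log2FC -4.23 ± 0.35 SE, adjusted p = 8.54e-07). *Ifit1* measured 19.8, 17.0, 19.0 and 12.9 CPM in DMSO samples 1 to 4 and 1.81, 2.68, 1.44 and 0.657 CPM in CHIR99021 samples 1 to 4 (log2FC -3.38 ± 0.30 SE, adjusted p = 8.22e-06). Treated samples of these genes sat at about 1 CPM or less for *Ifit3* and *Ifit3b* and below 3 CPM for *Ifit1*, and every control was above 3 CPM. *Ifit2*, in the same cluster, fell less (-1.18 ± 0.24, SE), and its groups were separated by a narrow gap, with 15.98 CPM in the highest treated sample and 16.8 CPM in the lowest control.

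OAS enzymes make 2′-5′ linked oligoadenylates that activate RNase L, which then cuts RNA. All 5 members were lower, with a median of -2.45. *Oas2* measured 20.3, 13.9, 24.1 and 17.1 CPM in DMSO samples 1 to 4 and 0.936, 0.536, 1.15 and 0.723 CPM in CHIR99021 samples 1 to 4 (log2FC -4.49 ± 0.24 SE, adjusted p = 2.60e-08). *Oas1a* measured 7.79, 6.74, 8.61 and 5.69 CPM in DMSO samples 1 to 4 and 1.19, 1.54, 1.44 and 1.12 CPM in CHIR99021 samples 1 to 4 (log2FC -2.45 ± 0.20 SE, adjusted p = 5.65e-07). *Oasl1*, a relative without enzyme activity, measured 6.28, 7.77, 8.73 and 6.09 CPM in DMSO samples 1 to 4 and 2.06, 1.47, 1.44 and 1.64 CPM in CHIR99021 samples 1 to 4 (log2FC -2.12 ± 0.19 SE, adjusted p = 1.68e-06). None of these overlapped between groups. *Oas3*, the largest of the enzymes, had the lowest log2 fold change of the family (-4.87 ± 0.50, SE), on counts of 3, 3, 7 and 1 in the treated samples, and *Oasl2* the smallest change (-1.43 ± 0.12, SE).

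The ISG15 system attaches a ubiquitin-like protein to other proteins, and all 3 of its members were lower. *Isg15*, the modifier itself, measured 14.1, 12.504, 15.2 and 13.7 CPM in DMSO samples 1 to 4 and 2.62, 2.01, 3.01 and 2.10 CPM in CHIR99021 samples 1 to 4 (log2FC -2.51 ± 0.15 SE, adjusted p = 4.19e-08). *Trim25*, a ubiquitin ligase that acts on RIG-I and is itself induced by interferon, measured 86.9, 82.1, 86.9 and 85.8 CPM in DMSO samples 1 to 4 and 57.1, 55.4, 56.6 and 53.3 CPM in CHIR99021 samples 1 to 4 (log2FC -0.62 ± 0.05 SE, adjusted p = 4.48e-07). The samples of a group lay close together for both genes, and the fall of *Trim25*, although only 1.54-fold, was larger than that spread. *Usp18*, the protease that removes ISG15 and dampens interferon receptor signaling, had a log2 fold change of -1.70 ± 0.27 (SE).

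Among 8 other antiviral factors, 7 were lower and 1 higher. *Ifi44* measured 21.4, 18.1, 20.7 and 20.4 CPM in DMSO samples 1 to 4 and 4.12, 2.14, 1.44 and 2.30 CPM in CHIR99021 samples 1 to 4 (log2FC -2.99 ± 0.23 SE, adjusted p = 1.59e-06). *Rsad2* encodes viperin, which makes a chain-terminating nucleotide, and measured 20.1, 19.1, 17.81 and 11.5 CPM in DMSO samples 1 to 4 and 3.06, 1.47, 2.30 and 1.51 CPM in CHIR99021 samples 1 to 4 (log2FC -3.03 ± 0.25 SE, adjusted p = 2.86e-06). *Rtp4*, an interferon-induced inhibitor of flaviviruses, measured 19.3, 17.2, 20.6 and 13.6 CPM in DMSO samples 1 to 4 and 8.05, 6.23, 6.67 and 6.38 CPM in CHIR99021 samples 1 to 4 (log2FC -1.37 ± 0.14 SE, adjusted p = 5.18e-06). Treated samples of all 3 genes were below every control. *Ifi27l2a* (-3.21), *Xaf1* (-1.72), whose product opposes an inhibitor of apoptosis, *Ifi35* (-1.02) and *Bst2* (-0.71) also fell, on the log2 scale, the last of these encoding tetherin, which holds budding virus at the cell surface.

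*Ifitm3* went the other way. Its product sits in endosomal membranes and blocks fusion of viruses, and it measured 94.5, 100, 102 and 113 CPM in DMSO samples 1 to 4 and 110, 132, 119 and 128 CPM in CHIR99021 samples 1 to 4 (log2FC 0.25 ± 0.07 SE, adjusted p = 0.00744 in edgeR). The treated sample was higher in all 4 pairs of equal replicate number, but the groups overlapped. DMSO sample 4 at 113 CPM exceeded CHIR99021 sample 1 at 110 CPM. The call was lost in limma on log2(FPKM + 1), on log2(FPKM + 0.1) and on log2(count + 1) after normalization between samples (log2 fold changes 0.12, 0.12 and 0.19, adjusted p = 0.233, 0.266 and 0.0758).

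Large GTPases of 3 families contribute to defence within the cell, and all 13 were lower. Of the Mx GTPases, which trap viral nucleocapsids, *Mx2* measured 5.36, 5.54, 5.21 and 3.73 CPM in DMSO samples 1 to 4 and 1.12, 0.803, 0.933 and 0.986 CPM in CHIR99021 samples 1 to 4 (log2FC -2.36 ± 0.21 SE, adjusted p = 1.55e-06), and the table lists this gene as a polymorphic pseudogene. *Mx1* measured 7.20, 8.45, 7.03 and 2.42 CPM in DMSO samples 1 to 4 and 1.62, 0.803, 1.58 and 2.96 CPM in CHIR99021 samples 1 to 4 (log2FC -1.85 ± 0.44 SE, adjusted p = 0.00685). *Mx1* was the least settled call: DMSO sample 4 lay below CHIR99021 sample 4, and the treated sample was lower in 3 of 4 pairs of equal replicate number. With these pairs as a block the adjusted p was 0.0548 in edgeR.

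Guanylate-binding proteins coat and lyse vacuoles that hold pathogens and are strongly induced by interferon-γ. All 7 members were lower, with a median of -2.58. *Gbp3* measured 16.7, 13.8, 16.2 and 11.3 CPM in DMSO samples 1 to 4 and 3.49, 2.74, 1.94 and 1.45 CPM in CHIR99021 samples 1 to 4 (log2FC -2.58 ± 0.23 SE, adjusted p = 3.28e-06). *Gbp9* measured 28.1, 22.0, 24.3 and 14.3 CPM in DMSO samples 1 to 4 and 6.86, 6.43, 6.10 and 4.602 CPM in CHIR99021 samples 1 to 4 (log2FC -1.89 ± 0.20 SE, adjusted p = 2.52e-05). *Gbp6* measured 5.36, 4.51, 4.74 and 2.03 CPM in DMSO samples 1 to 4 and 1.31, 0.937, 0.789 and 0.657 CPM in CHIR99021 samples 1 to 4 (log2FC -2.16 ± 0.32 SE, adjusted p = 1.15e-04). In each of the 3, DMSO sample 4 was the lowest control and still exceeded every treated sample. The other members ranged from -3.77 (*Gbp4*) through -2.87 (*Gbp2*) and -2.76 (*Gbp5*) to -1.61 (*Gbp7*).

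Immunity-related GTPases act on the same vacuoles, and the IRGM proteins keep the others from attacking host membranes. All 4 members were lower, with a median of -1.34. *Irgm2* measured 29.2, 22.7, 22.0 and 14.59 CPM in DMSO samples 1 to 4 and 8.86, 9.10, 7.25 and 7.10 CPM in CHIR99021 samples 1 to 4 (log2FC -1.45 ± 0.19 SE, adjusted p = 1.07e-04). *Iigp1* measured 39.7, 29.9, 26.7 and 18.7 CPM in DMSO samples 1 to 4 and 3.74, 8.43, 3.37 and 3.62 CPM in CHIR99021 samples 1 to 4 (log2FC -2.59 ± 0.36 SE, adjusted p = 5.64e-04), where CHIR99021 sample 2 was more than 2 times as high as the other treated samples. *Igtp*, which encodes IRGM3, measured 15.6, 12.0, 11.9 and 7.20 CPM in DMSO samples 1 to 4 and 5.37, 5.82, 5.02 and 3.88 CPM in CHIR99021 samples 1 to 4 (log2FC -1.22 ± 0.22 SE, adjusted p = 6.28e-04). Groups did not overlap for any of these, and *Irgm1* fell least (-0.86 ± 0.17, SE).

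PARP9 and DTX3L form a complex that modifies histones and interferon-dependent transcription, and the 3 genes of this group fell moderately, with a median of -0.93. *Dtx3l* measured 22.6, 19.9, 21.3 and 16.2 CPM in DMSO samples 1 to 4 and 11.2, 10.1, 10.9 and 9.73 CPM in CHIR99021 samples 1 to 4 (log2FC -0.93 ± 0.11 SE, adjusted p = 1.95e-05). *Parp9* measured 20.4, 19.2, 22.9 and 18.2 CPM in DMSO samples 1 to 4 and 14.0, 11.2, 11.1 and 10.7 CPM in CHIR99021 samples 1 to 4 (log2FC -0.78 ± 0.11 SE, adjusted p = 7.19e-05). *Parp14*, an ADP-ribosyltransferase, had a log2 fold change of -1.57 ± 0.20 (SE). The treated samples were below the controls for all 3.

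Schlafen genes regulate growth of immune cells and restrict viral translation. All 5 members were lower, with a median of -1.85. *Slfn9* measured 61.9, 55.2, 53.1 and 50.9 CPM in DMSO samples 1 to 4 and 30.8, 26.8, 31.9 and 26.6 CPM in CHIR99021 samples 1 to 4 (log2FC -0.93 ± 0.08 SE, adjusted p = 1.28e-06). *Slfn2* measured 13.3, 11.8, 14.1 and 9.29 CPM in DMSO samples 1 to 4 and 1.93, 3.95, 2.87 and 1.91 CPM in CHIR99021 samples 1 to 4 (log2FC -2.19 ± 0.23 SE, adjusted p = 7.80e-06). *Slfn8* measured 10.2, 7.31, 11.7 and 6.54 CPM in DMSO samples 1 to 4 and 2.37, 2.81, 3.01 and 3.02 CPM in CHIR99021 samples 1 to 4 (log2FC -1.67 ± 0.20 SE, adjusted p = 1.94e-05). The groups were separated for each, and *Slfn5* had a log2 fold change of -1.85 ± 0.20 (SE). *Slfn1* had no count in any treated sample, compared with 25, 31, 29 and 11 counts in DMSO samples 1 to 4. Set against a floor of 3 counts over the treated group, it was at least 28.1-fold lower, and counting error is all that this bound covers.

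**Figure D2:**
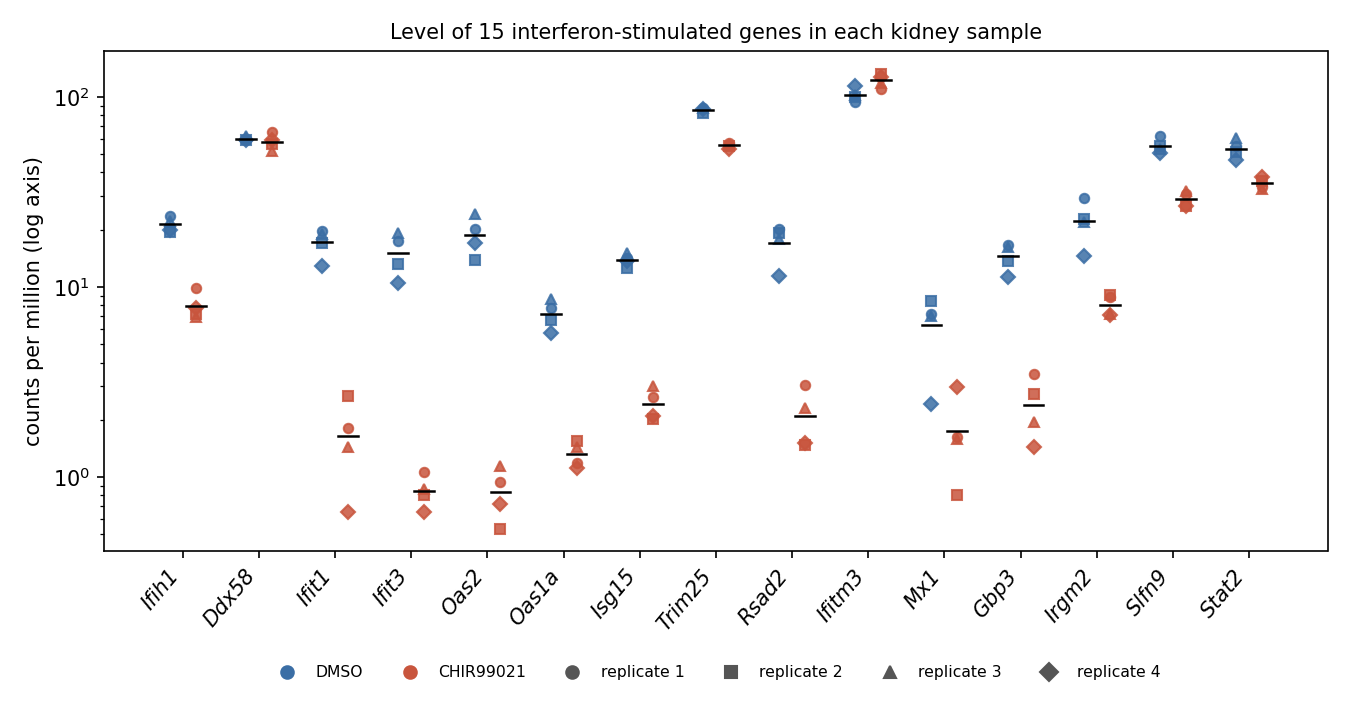
CPM on a log axis (y) of 15 of the genes (x) in each of the 4 DMSO (blue) and 4 CHIR99021 (red) samples, with a shape for each replicate number and a black line at the group mean. The groups are apart for 12 of the genes and overlap for *Ddx58* (59.1 to 62.0 CPM with DMSO and 51.6 to 65.0 CPM with CHIR99021), *Ifitm3* and *Mx1*.

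Compared per length, the genes spanned a wide range of levels. On the deposited FPKM scale *Ifitm3* was highest in both groups (158 ± 12.6 FPKM with DMSO and 172 ± 13.5 FPKM with CHIR99021), followed in the control by *Bst2* (34.2 ± 5.77), *Ifi27l2a* (24.6 ± 7.72), *Isg15* (19.2 ± 1.64) and *Trim25* (15.5 ± 0.487). *Bst2* exceeded *Ifi27l2a* in each of the 4 controls, by 7.06 to 11.9 FPKM. The lowest controls were *Gbp5* (0.556 ± 0.319), *Gbp4* (0.704 ± 0.443), *Gbp6* (0.730 ± 0.257) and *Slfn1* (0.777 ± 0.269), which overlapped each other. Unequal falls reordered the genes. Among the 47, *Ifi27l2a* moved from rank 3 with DMSO to rank 13 with CHIR99021 (2.44 ± 1.14 FPKM), *Ifit3* from rank 11 to rank 35 (0.461 ± 0.0896 FPKM), and *Ddx58* from rank 12 to rank 4 (7.85 ± 0.749 FPKM).

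The other genes of the pathway were counted in 7 lists, and these counts are to be read against the 25.0% of all tested genes that were lower and the 23.7% that were higher. Of 21 interferon genes listed, 5 had a row, and none had enough counts to be tested. Their summed level was 0 to 0.117 CPM with DMSO and 0.125 to 0.215 CPM with CHIR99021, and the gene with the most counts was *Ifnz*, with 0 in the 4 controls together and 7 in the 4 treated samples. None of the 6 receptor genes was called in edgeR (adjusted p under 0.05), and 1 of the 6 had an unadjusted p under 0.05. Their log2 fold changes ran from -0.18 to 0.21. *Ifnar1*, the first chain of the type I receptor, had a log2 fold change of 0.01 with an approximate 95% interval of -0.12 to 0.14. *Ifnar2*, its second chain, had 0.16 (interval -0.00446 to 0.33, adjusted p = 0.0664), and *Ifnlr1*, the interferon-λ receptor, had 0.21 (interval -0.09 to 0.50). For *Ifnar2* all treated samples (25.7 to 29.9 CPM) lay above all controls (24.0 to 25.1 CPM), although it was not called. Summed over the 6 genes the level was 267 ± 8.61 CPM with DMSO and 270 ± 9.23 CPM with CHIR99021. A few settings made a call among them: *Ifnar2* rose (0.19, adjusted p = 0.0246) in limma on log2(count + 1), *Ifngr2* fell in limma on log2(FPKM + 1) and log2(FPKM + 0.1) (-0.22 and -0.23, adjusted p = 0.00929 and 0.0136), and *Il10rb* fell (-0.34, adjusted p = 0.0423) without DMSO sample 4.

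Behind the receptors, *Stat2* fell, *Irf9* was not called, and *Jak2* and *Stat3* rose. *Stat2*, which is among the 47 genes, measured 55.0, 51.6, 60.5 and 46.5 CPM in DMSO samples 1 to 4 and 33.6, 36.1, 32.9 and 37.7 CPM in CHIR99021 samples 1 to 4 (log2FC -0.61 ± 0.08 SE, adjusted p = 5.04e-05). *Irf9*, its DNA-binding partner, measured 42.1, 39.1, 31.5 and 36.8 CPM in DMSO samples 1 to 4 and 39.9, 32.1, 35.7 and 31.3 CPM in CHIR99021 samples 1 to 4 (log2FC -0.10 ± 0.10 SE, adjusted p = 0.412). The treated samples were below all controls for *Stat2* and overlapped them for *Irf9*. The log2 ratio of *Stat2* to *Irf9* was 0.52 ± 0.28 with DMSO and 0.02 ± 0.24 with CHIR99021 (SD, n = 4 each), a difference of -0.50 (exact permutation p = 0.0286, adjusted p = 0.0429, and p = 0.125 over the 4 pairs). *Jak2*, the kinase of the interferon-γ receptor and of many cytokine receptors, rose and measured 87.5, 90.6, 76.7 and 101 CPM in DMSO samples 1 to 4 and 156, 181, 172 and 170 CPM in CHIR99021 samples 1 to 4 (log2FC 0.93 ± 0.08 SE, adjusted p = 1.20e-06). *Stat3*, which mainly transmits signals of the interleukin-6 family, also rose (log2FC 0.31 ± 0.06 SE, adjusted p = 6.08e-04), a call lost in limma on log2(FPKM + 0.1) and on log2(count + 1) (adjusted p = 0.0564 and 0.0551).

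Of the interferon regulatory factors, 3 of 7 tested genes were lower and 1 higher. *Irf7*, which amplifies type I interferon responses, showed the largest fall of this list and measured 34.8, 28.9, 39.95 and 25.8 CPM in DMSO samples 1 to 4 and 3.74, 3.95, 3.52 and 2.76 CPM in CHIR99021 samples 1 to 4 (log2FC -3.21 ± 0.16 SE, adjusted p = 1.82e-08). *Irf8*, a factor of myeloid cells, fell too (log2FC -1.69 ± 0.16 SE, adjusted p = 2.24e-06). *Irf1*, an early target of interferon-γ, rose (log2FC 0.36 ± 0.10 SE, adjusted p = 0.0115), but it did not pass in limma on log2(FPKM + 1) or log2(FPKM + 0.1) (adjusted p = 0.0876 and 0.105). Both *Irf7* and *Irf8* were lower in every treated sample than in any control.

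Of 13 tested sensing receptors and adaptors outside the 47 genes, 6 were lower (46.2%) and 3 higher (23.1%, where 23.7% of all tested genes were). *Tlr3*, the endosomal receptor for double-stranded RNA, fell (log2FC -1.12 ± 0.13 SE, adjusted p = 1.99e-05), whereas *Tmem173*, which encodes the DNA-sensing adaptor STING, rose (log2FC 0.60 ± 0.07 SE, adjusted p = 1.24e-05). The kinase *Tbk1* (0.21 ± 0.06, SE) and the adaptor *Myd88* (0.41 ± 0.10, SE) rose by less, and neither was called in limma on log2(FPKM + 0.1). *Tlr7* and *Tlr8*, endosomal receptors for single-stranded RNA that were picked out after their values were seen, fell by 3.46 and 3.60 on the log2 scale. *Tlr7* measured 7.63, 7.42, 8.67 and 1.37 CPM in DMSO samples 1 to 4 and 0.811, 0.469, 0.502 and 0.460 CPM in CHIR99021 samples 1 to 4, so that DMSO sample 4 was nearer to the treated group than to the other controls.

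Of the inhibitors of interferon signaling, 3 of 7 were higher and 3 lower. *Socs1*, which blocks Janus kinases at the interferon receptors and is itself induced by interferon, measured 1.89, 3.08, 3.22 and 2.62 CPM in DMSO samples 1 to 4 and 6.80, 10.1, 10.6 and 7.69 CPM in CHIR99021 samples 1 to 4 (log2FC 1.70 ± 0.20 SE, adjusted p = 1.89e-05). *Socs3*, which acts mainly on interleukin-6 type receptors, went from 60.1 ± 15.3 to 110 ± 15.9 CPM (log2FC 0.87 ± 0.20 SE, adjusted p = 0.00774), and the phosphatase gene *Ptpn11* rose as well (log2FC 0.41 ± 0.05 SE, adjusted p = 9.98e-06). All treated samples exceeded all controls for these 3 genes. Over all 7 lists, 41 of 78 tested genes were lower and 13 higher, and 39 of the 78 were relatives of the 47 genes. Without the relatives, 13 of 39 were lower (33.3%) and 9 higher (23.1%), beside 25.0% and 23.7% of all tested genes.

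**Figure D3:**
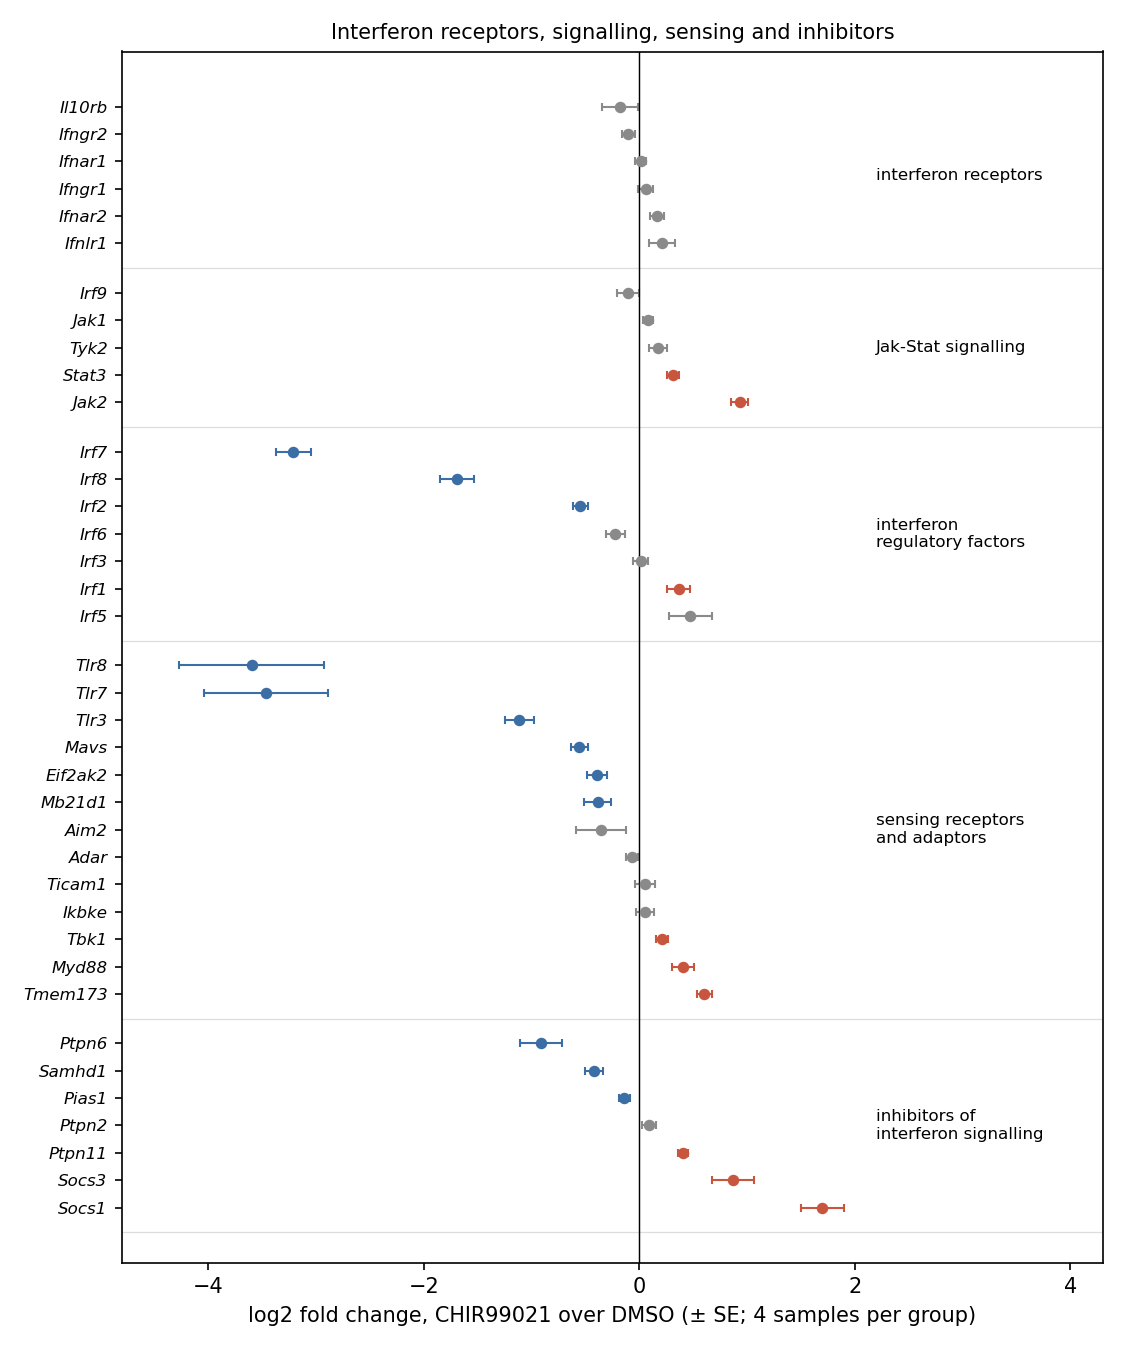
Log2 fold change of CHIR99021 over DMSO (x axis) for genes of 5 pathway lists, with bars of ± 1 SE from edgeR and 4 samples per group, blue for genes called lower, red for higher and grey for neither. All 6 receptor genes lie between -0.18 and 0.21, while the regulatory factors run from -3.21 (*Irf7*) to 0.47 and the inhibitors up to 1.70 (*Socs1*).

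Markers of several cell types were also lower with CHIR99021, while other marker lists rose or overlapped between groups. Counts of called markers are to be read against the 25.0% of all tested genes called lower and the 23.7% called higher. In bulk samples, fewer cells of a type and less RNA per cell cannot be told apart. The sum of 20 macrophage markers went from 583 ± 247 to 95.1 ± 36.5 CPM, which is 16.3% of the control, with 18 of 19 tested members lower and none at 0 counts in either group. *Csf1r*, the receptor that defines the lineage, went from 33.2 ± 17.9 to 2.89 ± 1.26 CPM, and *Cx3cr1*, which fell most of the list, from 5.91 ± 3.45 to 0.0670 ± 0.0548 CPM. Other macrophage markers changed less. *Cd68* went from 28.2 ± 7.06 to 20.1 ± 0.405 CPM, and *Mertk* (20.8 ± 1.80 to 18.7 ± 2.16 CPM) was not called. The groups overlapped for both and for *Mrc1*. The sum of 12 endothelial markers was 38.3% of the control (523 to 721 CPM with DMSO and 205 to 283 CPM with CHIR99021), with 12 of 12 lower. T and B lymphocyte markers summed to 5.63 to 8.85 CPM with DMSO and 2.12 to 2.54 CPM with CHIR99021, with 2 of 3 tested members lower and *Ms4a1* at 0 counts in the treated group (4 in the controls together). Nephron progenitor markers summed to 41.1% of the control (11 of 12 lower), with a median log2 fold change of -3.22 (-7.11 to 0.37). Abundant markers that fell less weigh most in this sum, such as *Sall1* (390 ± 50.7 to 273 ± 26.5 CPM) and *Itga8* (195 ± 19.4 to 135 ± 10.8 CPM). *Six2* went from 203 ± 28.4 to 5.05 ± 1.70 CPM. Ureteric bud markers summed to 78.9% of the control (6 of 12 lower, 1 higher). The sum of the stromal markers was 184% of the control, with 3 of 10 tested stromal members lower and 3 higher and a median log2 fold change of -0.06. That sum is carried by the collagen genes *Col1a1* (1793 ± 333 to 4524 ± 426 CPM) and *Col3a1* (1719 ± 175 to 2673 ± 292 CPM), and the other 8 stromal markers summed to 117% of the control. Red blood cell markers summed to 10.2 to 33.3 CPM with DMSO and 7.36 to 16.9 CPM with CHIR99021, and neural markers to 40.7 to 81.4 CPM and 15.5 to 110 CPM, so both lists overlapped between groups. The part of these cell types in the fall of the interferon-stimulated genes was not tested.

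DMSO sample 4 held few macrophage transcripts for a control, with a macrophage sum of 215 CPM, 30.5% of the mean of the other 3 controls. In that sample the summed level of the 47 genes was 82.2% of the mean of the other controls, and the genes ranged from 25.6 to 115%, with a median of 72.3%, compared with 31.1% for the macrophage markers. It was the lowest control for 35 of the 47 genes, whereas it was the lowest for 25.1% of all tested genes. By family, the summed level in this sample ran from 47.6% of the other controls for the Mx genes, 59.1% for guanylate-binding proteins, 62.7% for IFIT genes and 62.8% for immunity-related GTPases to 98.1% for the ISG15 system and 101% for the other antiviral factors. The last 2 sums are carried by their most abundant genes, and were 87.4% without *Trim25* and 89.1% without *Ifitm3*. By gene, 6 were under 50% (25.6% for *Gbp5*, 32.0% for *Mx1*, 34.7% for *Gbp4*, 41.6% for *Gbp6*, 42.0% for *Oas3* and 44.8% for *Slfn1*) and 11 were above 90%, among them *Isg15* (98.2%), *Ifi44* (102%), *Ifih1* (91.5%) and *Ifi27l2a* (95.0%). These 11 genes changed unequally with CHIR99021. *Ifi27l2a*, *Ifi44* and *Isg15* fell between 5.69- and 9.23-fold, *Xaf1*, *Oasl2*, *Ifih1*, *Ifi35*, *Bst2* and *Trim25* fell between 1.54- and 3.30-fold, *Ddx58* was not called, and *Ifitm3* was called higher. With DMSO sample 4 left out, 45 genes were called lower and the median log2 fold change was -2.05.

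**Figure D4:**
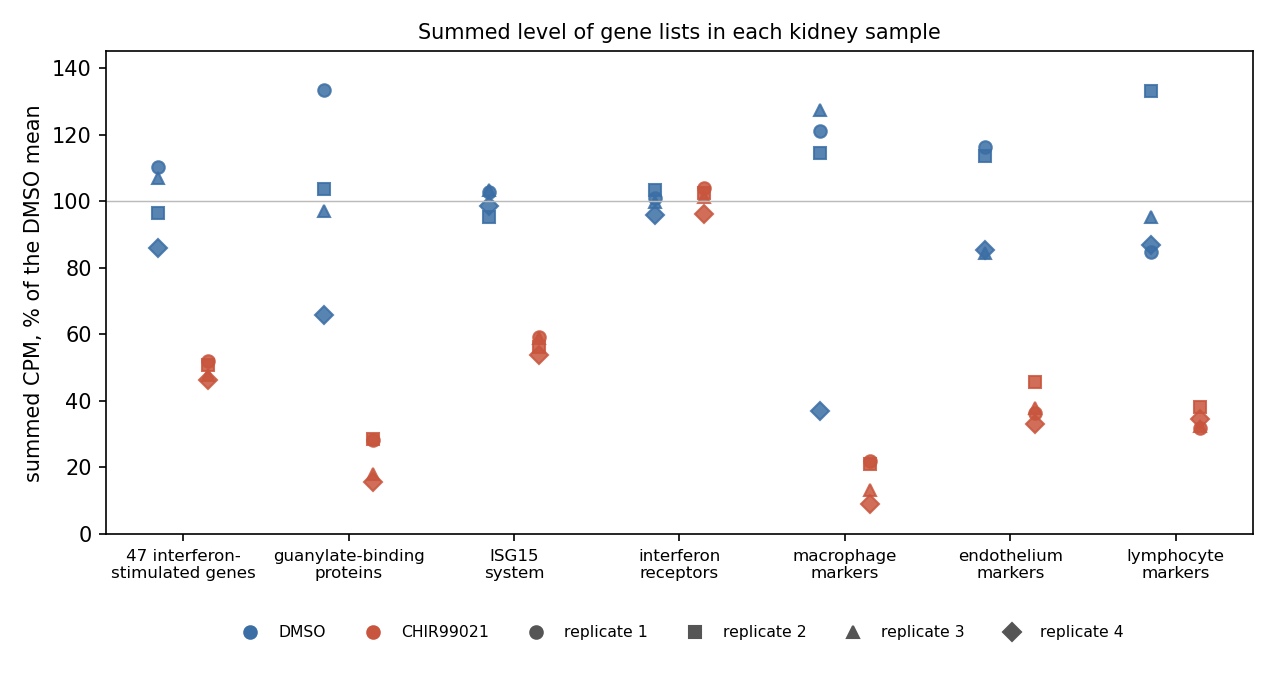
Summed CPM of gene lists in each sample as a percentage of the DMSO mean (y axis), with blue for DMSO, red for CHIR99021 and a shape for each replicate number. DMSO sample 4 (blue diamond) has the lowest macrophage sum among controls (215 CPM). For the ISG15 system it lies at 103 CPM, with 99.6 to 108 CPM in the other controls. That sum is carried by *Trim25*, without which this sample is at 87.4% of the mean of the other controls. The summed level of the interferon receptors does not separate the groups.

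Many of the genes are neighbours on the chromosomes, and 30 of the 47 lay in 10 groups with gaps of at most 1 Mb, in the coordinates of the table (GRCm38). The IFIT genes occupied chr19:34550694-34650009, the OAS enzymes chr5:120730333-120907521, and the Mx genes chr16:97447035-97560900. Guanylate-binding genes formed one group of 4 on chr3:142493978-142638008 and one of 3 on chr5:105077630-105293698. Within groups the changes were unequal, from -4.23 to -1.18 for IFIT and from -4.87 to -2.45 for OAS. The Schlafen group on chr11:82951349-83122670 held 5 of the genes, all lower, and 1 other tested gene, the pseudogene *Slfn10-ps*, which rose (log2FC 0.75 ± 0.21 SE, adjusted p = 0.0106). Of 36 other genes tested in the 10 groups, 32 lay in the stretch between *Dhx58* and *Ifi35* (chr11:100694884-101458698), where 13 were lower (40.6%) and 5 higher (15.6%), beside 25.0% and 23.7% of all tested genes. The other groups held 4 such genes, 3 lower and 1 higher.

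Closely related copies limit some single-gene values. Transcripts of GENCODE vM21 (GRCm38) were read as overlapping stretches of 50 bases, and for 10 of the 47 genes more than 10% of the stretches also occurred in another gene, and how such reads were counted is not stated in the sources used. The shares with any other gene were 70.7% for *Gbp6* (65% with *Gm43302*), 57.6% for *Oas1a* (all with *Oas1g*) and 51.2% for *Ifit3* (all with *Ifit3b*). They were 45% for *Ifit3b* (44.5% with *Ifit3*) and 20% for *Ifi204* (14.8% with *Ifi211*). The share was 11.5% for *Slfn9* and somewhat higher for *Slfn8*, both mainly with *Slfn10-ps*. It was 12.7% for *Gbp7*, 11.8% for *Igtp* and 11.6% for *Rtp4*. On the same strand, *Gbp6* shared 29% of its exon bases with *Gm43302*, *Rtp4* 13.9% with *Gm45338*, *Gbp7* 11.3% with *Gm43802* and *Igtp* 8.01% with *Irgm2*. On the opposite strand, *Ifi35* shared 16.8% of its exon bases with *Gm11626*, and *Parp9* shared 9.40% with *Dtx3l*. *Isg15*, *Ifi44*, *Rsad2*, *Ifih1*, *Trim25* and *Stat2*, which moved in the same direction, were not among these.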

How the data were processed

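RNA from 8 kidney samples was sequenced. The authors cleaned the reads, used HISAT2 2.0.5 to align them to GRCm38 and featureCounts to obtain gene counts, and the deposited counts are unscaled whole numbers. The deposited FPKM values were made by the authors per kilobase of gene and by the fragments of the sample. For the strand setting of the counting, no source used here gives a value. For library preparation the sample labels name a NEBNext Ultra kit and the paper a Hieff NGS MaxUp II kit. Columns with the authors' own mean, fold change, p-values and calls for the groups were not used.

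Samples were grouped by the agent in their labels. The study paired the left and right kidney of an embryo, but neither the labels nor the paper tie replicate numbers to embryos. Equal replicate numbers were taken as pairs here, which is an assumption. After removal of group means samples of equal number correlated at 0.111 to 0.346 across genes, all others at -0.180 to 0.0766. The labels do not state the number of kidneys in a sample, and p-values measure the spread between these samples.

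Genes were kept by filterByExpr (minimum count 10, minimum total 15), scaled by TMM and tested with edgeR 4.0.16 (glmQLFit with robust = TRUE, glmQLFTest, group as the only term) in R 4.3.3, with Benjamini-Hochberg adjustment over 16723 genes. SE is the absolute log2 fold change divided by the square root of F, and intervals use it with 6 degrees of freedom. Ratios were tested on log2 counts with 0.5 added, by exact permutation in SciPy 1.17.1. The floor for a gene at 0 was 3 counts over the group, which covers counting error only. The edgeR fit was tried on simulated counts of unpaired samples in which few genes changed, as many up as down. That trial does not cover paired samples, or scaling where many genes change, as they did here.

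The 47 genes, the pathway and marker lists and the rules were chosen with earlier results of these data known. Values per sample are given for the 3 genes of each family (2 in families of 3 or fewer) with the smallest p that averaged at least 1 CPM in a group, and for genes not called or called higher. From each pathway list the 2 genes with the smallest p, those that rose, and *Irf7* and *Irf9* are named, and 1 gene that the rule gives is not reported here. *Slfn1* and others named beside these were picked after their values were seen. Alternatives were upper-quartile and RLE scaling, a block for the replicate number, DESeq2 1.42.0, limma-voom (limma 3.58.1), no filter, a filter of 1 CPM in 4 samples, each sample left out, and limma on log2(count + 1) after normalization between samples or on log2 FPKM values with 1 or 0.1 added.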

Additional observations from a re-analysis of the deposited data

Results flagged for a closer look

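Of 162 groups of 4 samples examined for 1 sample far from the other 3, 5 were flagged, and chance alone flags about 1 in 20. For *Dhx58*, DMSO sample 3 measured 10.1 CPM, with 6.02 to 6.49 CPM in the other controls. For *Iigp1*, CHIR99021 sample 2 measured 8.43 CPM, with 3.37 to 3.74 CPM in the other treated samples, and for *Parp9*, CHIR99021 sample 1 measured 14.0 CPM, with 10.7 to 11.2 CPM in the others. The macrophage markers summed to 215 CPM in DMSO sample 4, with 668 to 744 CPM in the other controls. Neural crest and neuron markers summed to 110 CPM in CHIR99021 sample 2, with 15.5 to 24.9 CPM in the other treated samples, and this is the sample in which *Iigp1* stood apart.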

How the results depend on the processing

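Across 10 other analyses and the 8 fits that leave out 1 sample, 44 or 45 of the 47 genes were called lower, with 46 of them tested at 1 CPM in 4 samples. With equal replicate numbers as a block 44 were lower, and the block changed no call among the 47 genes other than that of *Mx1*. It changed none among the other pathway genes that were compared across settings. Those left out *Tlr7*, *Tlr8*, the cell type markers and several relatives, among them *Slfn4* and *Ifitm2*. The median log2 fold change of the 47 genes was -1.15 in limma on log2(FPKM + 1), a scale that understates changes of low genes, and -2.05 to -1.76 when 1 sample was left out. Of 845 single values for the 47 genes, 840 kept direction and side of the threshold. The exceptions were *Mx1* under the block, *Ifitm3* in the 3 analyses named with its value, and *Ddx58*, from -0.101 without CHIR99021 sample 1 to 0.0109 without sample 3. Genes of the pathway called higher numbered 7 on log2(FPKM + 0.1), instead of 13. *Ifnar1* changed sign with upper-quartile scaling (-0.0352), on log2(FPKM + 1) (-0.12), on log2(FPKM + 0.1) (-0.12) and on log2(count + 1) (-0.0462), and without DMSO sample 3, DMSO sample 4 or CHIR99021 sample 1 (-0.0131, -0.00581 and -0.0112, up to 0.0569 without CHIR99021 sample 4). *Ifngr1* did so on both FPKM scales (-0.0706 and -0.0749) and *Il10rb* on log2(count + 1) (0.0149), while none of these was called. *Isg20* was no longer called without DMSO sample 2, CHIR99021 sample 1 or CHIR99021 sample 3 (log2 fold changes 0.74, 0.77 and 0.70), or, with *Parp11*, on either FPKM scale. The cause of these shifts was not tested.

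The 3 ratios given here that passed could not pass with fewer samples, since the smallest p is 0.0571 with 1 sample left out and 0.125 when the signs of the 4 pairs (the replicate block) are flipped. Their differences were -1.44 to -1.33 for *Ifih1* to *Ddx58*, -2.28 to -1.94 for *Dhx58* to *Ddx58* and -0.58 to -0.36 for *Stat2* to *Irf9* with 1 sample left out. Over the pairs they were -1.38, -2.10 and -0.50, each with p = 0.125 in the exact sign-flip permutation. Depth limits *Slfn1*, *Oas3*, *Gbp4* and *Ifit3b*, whose treated samples hold 0 to 12 counts.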

Other observations

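Relatives of the 47 genes that were not among them were counted in the same comparison. Of 58 listed, 39 were tested, 28 were lower (71.8%, where 25.0% of all tested genes were) and 4 higher (10.3%, where 23.7% were), with a median log2 fold change of -0.995. *Mndal*, a member of the IFI200 family that includes *Ifi204*, measured 37.1, 33.3, 34.0 and 28.7 CPM in DMSO samples 1 to 4 and 5.87, 7.30, 5.17 and 4.01 CPM in CHIR99021 samples 1 to 4 (log2FC -2.57 ± 0.15 SE, adjusted p = 6.94e-08 in edgeR). *Sp100*, a component of nuclear bodies, measured 26.5, 19.8, 30.4 and 19.0 CPM in DMSO samples 1 to 4 and 2.00, 1.61, 2.94 and 1.77 CPM in CHIR99021 samples 1 to 4 (log2FC -3.53 ± 0.21 SE, adjusted p = 1.81e-07 in edgeR). The groups were far apart for both. Picked out after their values were seen, the Schlafen gene *Slfn4* (-5.04), the GTPase gene *Tgtp2* (-4.77), *Phf11d* (-3.71), the IFI200 genes *Ifi205* (-3.63) and *Ifi207* (-3.52) and the ubiquitin ligase gene *Trim30a* (-3.44) were among those with the largest falls, on the log2 scale.

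The 4 relatives that rose were *Isg20*, an exonuclease gene (0.79 ± 0.27, SE), *Slfn10-ps* (0.75 ± 0.21), *Ifi27* (0.72 ± 0.10) and *Parp11* (0.28 ± 0.08). The calls of *Isg20* and *Parp11* were lost in limma on log2(FPKM + 1) (adjusted p = 0.0521 and 0.201) and on log2(FPKM + 0.1) (adjusted p = 0.0785 and 0.207). *Ifi27* measured 13.8, 14.0, 17.2 and 13.1 CPM in DMSO samples 1 to 4 and 27.0, 23.4, 22.1 and 22.9 CPM in CHIR99021 samples 1 to 4, with all treated samples above all controls, whereas its relative *Ifi27l2a* fell by 3.21 on the log2 scale. *Ifitm2*, a neighbour of *Ifitm3* in sequence family, had a log2 fold change of 0.29 (adjusted p = 0.0574 in edgeR), and *Ifitm1* had 0.02 (adjusted p = 0.917 in edgeR), and neither was called.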
